A study of Drosophila melanogaster with 33 samples.

Results

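The short circles of the fly head were the 394 circRNAs whose genomic span lay between 50 and 499 bases. They were chosen by 3 criteria from the 7582 circRNAs of the table, namely the genomic span, a single host gene, and a measured level that averaged 1 normalized read or more over the 33 libraries. Of 911 single-host circles of that span, 394 passed the cut on the mean, and they came from 270 host genes. The 3616 other single-host circles that passed the same cut served for comparison; 3507 of them spanned at least 500 bases and 109 spanned fewer than 50. The span is genomic, so any intron inside a circle of 2 or more exons is counted in it. Because the cut uses the same values as the comparisons, a circle present at a single age or in a single sex passed through that age or sex. Of the members, 86 had no read at day 0 in either sex, 19 had none at day 50, and 60 had a read in all 32 samples. In addition, 17 had no read in any male library.

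Total RNA of pooled heads of CS flies (CantonS, wild-type, kept at 25 °C) was sequenced after ribodepletion in females and males at days 0, 10, 20, 30, 40 and 50, where day 0 stands for flies taken 2 to 3 days after eclosion, labelled as mated for 3 days. Each group of sex and age held 3 libraries, except male days 10, 20 and 50 with 2. A head contains brain, eye, fat body and muscle, so in these bulk samples fewer cells of a type and less RNA per cell cannot be told apart. No allele or agent separated the groups. Values are normalized reads, which are back-splice or linear reads divided by one size factor per library. Back-splice reads of the short circles ranged from 3409 to 17256 per library, out of 22475 to 249768 for all circRNAs. Female day 50 replicates 1 and 2 carried identical reads in all 303 short circles detected in them, whereas other pairs of a group shared 2.38 to 6.63% of circRNA values, so both were averaged and counted as 1 sample, leaving 32 samples. Female day 0 replicate 2 was the shallowest library, and male day 20 replicate 1 stood apart from its partner in several members, as given below. The high roX1 level of males (113838 to 199420 normalized reads, against 159 to 5251 in females) matched the labelled sexes.

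A circRNA arises by back-splicing, in which a donor site is joined to an acceptor site that lies upstream of it. The product is a closed molecule without a cap or a poly(A) tail, which exonucleases cannot attack from an end. CircRNAs are abundant in nervous tissue, where neurons no longer divide. A circle this short has room for only a few exons of typical size.

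Sequences of 6 named circles are shown because they carry the patterns described below, read from the Release 6 genome, which has dm6 coordinates. For bt, Uhg3 and Ggamma30A the whole circle is written 5′ to 3′ in lower case, between the intron bases that flank it in capitals (AG before the start, GT after the end). For the longer scro and Sh circles the junction is written, with the last 25 bases of the circle in lower case and its first 25 bases in capitals.
bt, 174 bases, chr4:737736-737909, plus strand: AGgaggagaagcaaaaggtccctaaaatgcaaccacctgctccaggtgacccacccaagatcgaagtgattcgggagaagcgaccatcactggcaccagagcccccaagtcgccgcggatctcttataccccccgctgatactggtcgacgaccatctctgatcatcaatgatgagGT
Uhg3, 60 bases, chr2L:20648189-20648248, plus strand: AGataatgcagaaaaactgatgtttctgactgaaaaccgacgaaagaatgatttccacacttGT
Ggamma30A, 142 bases, chr2L:9272466-9272607, plus strand: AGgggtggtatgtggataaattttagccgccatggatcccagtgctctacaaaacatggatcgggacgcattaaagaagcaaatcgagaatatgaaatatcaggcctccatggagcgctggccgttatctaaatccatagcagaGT
scro junction, 469 bases, chr3L:24725824-24726292, plus strand: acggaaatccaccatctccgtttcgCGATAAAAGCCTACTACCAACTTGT
Sh junction of 438 bases, chrX:17940720-17941157, minus strand: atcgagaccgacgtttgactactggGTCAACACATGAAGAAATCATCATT
Sh junction of 441 bases, chrX:17940720-17941160, minus strand: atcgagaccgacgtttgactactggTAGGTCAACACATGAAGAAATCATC
Both Sh circles ended at the same base, and the longer began 3 bases (tag) upstream, itself preceded by ag, so they differed by a neighbouring acceptor site. A circle of CG17108, chosen after its values were seen, is shown as an example of members without annotated ends. It runs over 177 bases at chr2L:10693436-10693612 on the minus strand, and the capitals mark 9 identical bases at both ends, between which the junction could be placed at any base without changing the read.
CG17108: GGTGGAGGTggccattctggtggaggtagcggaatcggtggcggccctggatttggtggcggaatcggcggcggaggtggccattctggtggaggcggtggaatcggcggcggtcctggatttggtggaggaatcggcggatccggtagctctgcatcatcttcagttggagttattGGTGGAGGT

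The members fell into structurally different kinds. Both ends coincided with annotated exon ends of the host in 230 circles, 1 end did in 21 and neither did in 142, and 1 host ID (FBgn0265988) had no gene in the annotation used. The paper regards most circRNAs of its unfiltered set as likely artifacts, since most lacked annotated junctions and were rarely or weakly detected. Its stringent read filter was not applied here. Whether members without annotated ends are true circRNAs was not tested. Of the 3507 circles of at least 500 bases, 2995 had both ends at exon ends (85.4%), against 58.4% of the short circles. All 394 members were flanked by AG and GT on the strand of the host, but so were all 3507 circles of at least 500 bases. These flanks therefore did not set apart short circles or those with annotated ends. Among the 230 annotated members, 115 were a single exon, 113 spanned 2 exons and 2 spanned 3 or more. In 76 of them the circle started at exon 2 of a transcript and none started at exon 1, against 980 and 1 of the 2995 annotated circles of at least 500 bases. The introns of the annotated members had medians of 4110 bases upstream and 3230 bases downstream, against 3628 and 2102 bases in those longer circles. Uhg3 sat between introns of 175 and 171 bases. Median GC content was 50.6% in annotated members and 58.6% in those without an annotated end, but 63.5% in the 54 circles of CG17108 and 49.5% in the 88 others without annotated ends, so the difference was not seen without that host. Members without annotated ends were shorter (median 175.5 against 392.5 bases).

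The 142 circles without annotated ends were concentrated in few hosts. CG17108 alone gave 54 of them within chr2L:10693271-10693894, built from 23 different starts and 21 different ends. The antisense RNA asRNA:CR45601 gave 9, apolpp, which encodes the fly apolipophorin carried in haemolymph, gave 7, the yolk protein gene Yp1 gave 5 and CG5172 gave 4. A run of 5 or more identical bases at both ends occurred in 83 of the 142 (58.5%) and in 12 of the 230 annotated members (5.22%). Of the 83, CG17108 gave 48, and without that host the run occurred in 35 of 88 (39.8%). The span was a multiple of 3 in all 54 CG17108 circles, in 46 of the other 88 circles without annotated ends and in 87 of the 230 annotated ones. Members of the same host share their source, and 90 of the 394 shared a start or an end with another member. An opposite-strand gene overlapped 39 members, and the strand setting of the authors' counting is not given in the sources used here.

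The question of the study was how circRNA levels change as flies age, and in summed reads the short circles increased less than the other circles. Their summed reads were 7888 ± 319 (SD, n = 3) normalized reads in females at day 0, 7797 ± 58.0 (n = 3) at day 10 and 13008 ± 267 (n = 2) at day 50. In males the sums were 7468 ± 195 (n = 3), 6463 ± 1111 (n = 2) and 12752 ± 29.7 (n = 2). This was 1.65-fold of day 0 in females at day 50 and 1.71-fold in males, against 3.69-fold and 3.7-fold for the other single-host circles. The share of short circles in all single-host circle reads therefore went down from 16.6 ± 0.275% to 8.19 ± 0.0728% in females, and in males it went from 15.0 ± 0.256% down to 7.55 ± 0.0572%, with no overlap between the libraries of day 0 and those of any later day. A slope of the log2 ratio of short to other circle reads was fitted over libraries. It was −0.0216 ± 0.00307 (SE) per day in females (Pearson r = −0.876, Spearman rho = −0.961, n = 17) and −0.0208 ± 0.00314 in males (r = −0.878, rho = −0.923, n = 15). Permuting the days over the libraries (two-sided) gave p = 1e-05 for each sex, the smallest that 100000 permutations can give (1.5e-05 after Benjamini-Hochberg adjustment over 6 slopes), and the rank correlations gave the same p. Without the day 50 females, the samples farthest from the median day, r was −0.900, and without the day 0 males it was −0.867. The slopes of both sexes did not differ beyond the spread when sex was permuted within day (difference 0.000811 per day, permutation p = 0.68).

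**Figure D1:**
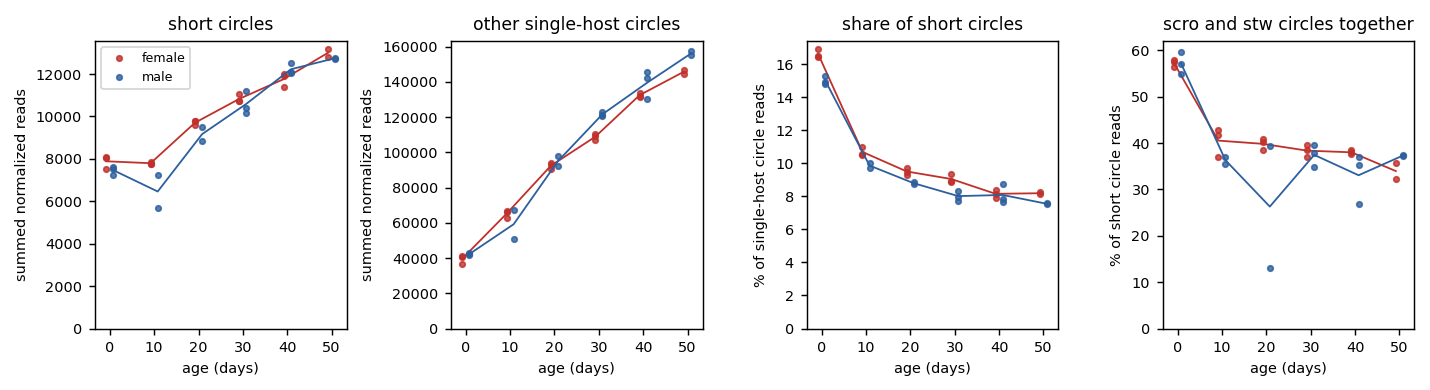
Summed normalized reads of the short circles and of the other single-host circles, the share of short circles in single-host circle reads (%), and the share of the scro and stw circles in short circle reads (%), by age in days. Points are libraries and lines join group means. The share of short circles drops from 16.6% to 10.7% between day 0 and day 10 in females and then declines slowly, and 1 male library of day 20 lies low in the last panel.

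A pair of circles carried much of this sum. In females the scro and stw circles together made up 57.3 ± 0.721% of short circle reads at day 0 and 34.0 ± 2.40% at day 50. In males they made up 57.2 ± 2.47% and 37.3 ± 0.0562%. With both left out, the sum at day 50 was 2.55-fold of day 0 in females and 2.5-fold in males, and the slope of the log2 ratio was −0.0117 per day in females (permutation p = 1e-05) and −0.0111 in males (p = 0.0015), so its size depended on them by more than 1.5 times while its sign did not. The slope was also smaller from day 10 onward, at −0.0114 in females and −0.00964 in males. A median over circles behaved differently: the difference between the median log2 level of short and of other circles changed by −0.0051 per day in females (permutation p = 0.042) and by 0.00174 in males (p = 0.79), so the steeper decline belonged to the summed reads. The summed reads themselves rose by 109.9 ± 6.51 normalized reads per day in females and 125.8 ± 12.8 in males (permutation p = 1e-05 in each, adjusted 1.5e-05). Pearson r was 0.975 and 0.938, rho was 0.942 and 0.932, and r was 0.962 and 0.954 without the samples farthest from the median day.

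More members were detected in older flies as deposited, but neither slope over all ages passed the test at an equal number of circle reads, a draw that also removes the rise in circRNA reads with age. In female libraries 128 to 222 members had a read at day 0, and 291 to 303 had one at day 50. When each library was drawn down to 20117 single-host circle reads, 165 ± 32.7 members were detected at day 0 and 186 in each sample at day 50 in females. Males had 171 ± 16.5 and 170.5 ± 0.707 members. The slope was 0.247 members per day in females (permutation p = 0.44, r = 0.224, rho = −0.0287) and 0.156 in males (p = 0.57, r = 0.168, rho = 0.0961), with adjusted p of 0.528 and 0.57. Male day 20 replicate 1, whose read step is close to 1, was left out of the draw, although its values were whole multiples of that step too. In females the slope became −0.114 without day 0 replicate 2, the library with 128 members, and in males −0.0557 without day 0 replicate 3. From day 10 on, the drawn slope was −0.434 in females (permutation p = 0.0034) and −0.327 in males (p = 0.38). Undrawn, the slopes were 2.01 and 1.9 members per day (permutation p = 0.00023 and 6e-05). Leaving out the samples farthest from the median day gave r = 0.362 in females and −0.292 in males.

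**Figure D2:**
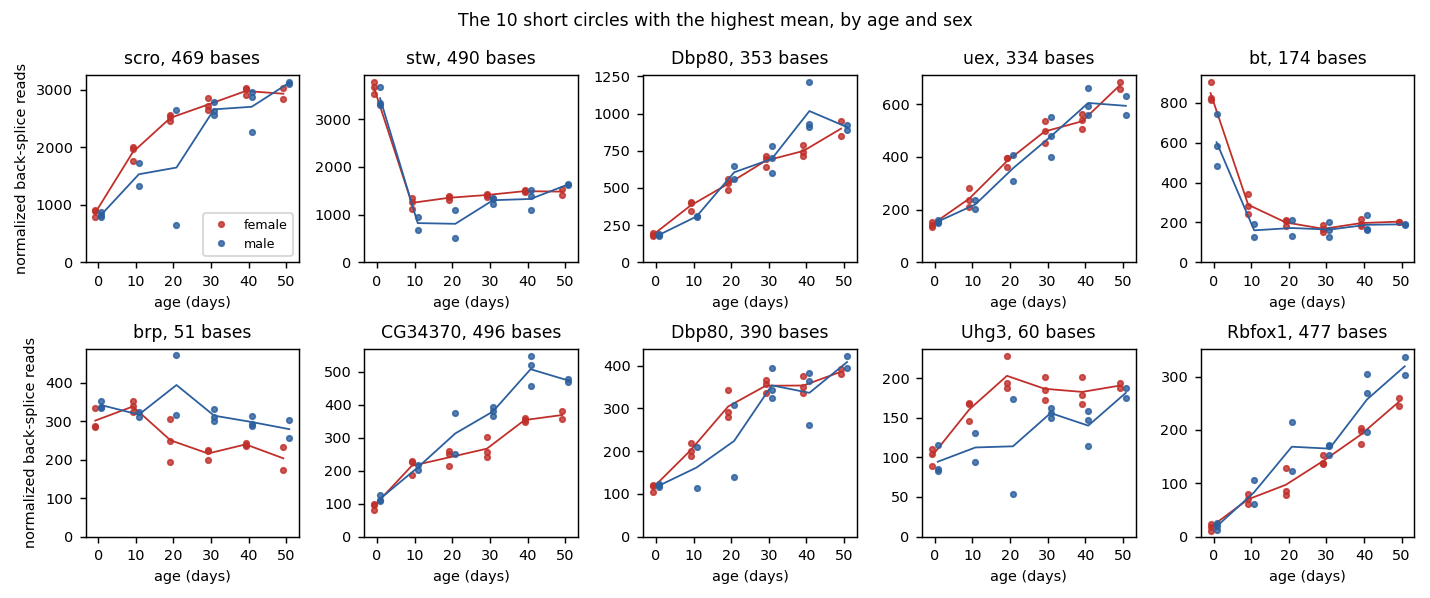
Normalized back-splice reads of the 10 short circles with the highest mean against age in days, females in red and males in blue. Points are libraries and lines join group means. The stw and bt circles are highest at day 0, the scro, Dbp80, uex, CG34370 and Rbfox1 circles are highest late, and the brp circle of 51 bases stays within 173 to 474 reads.

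The most abundant member was the circle of scro, a homeobox transcription factor of the NK-2 class, formed by exon 2 (469 bases). In females it had 902, 792 and 884 normalized reads at day 0, 2009, 1976 and 1762 at day 10, and 2839 and 3024 at day 50. In males it had 783, 881 and 815 at day 0 and 3108 and 3141 at day 50, but only 647 in male day 20 replicate 1, where replicate 2 had 2648. Every library of day 50 lay above every library of day 0. The change in log2(reads + 1) was 1.77 ± 0.31 (SE; adjusted p = 7.9e-05) in females and 1.92 ± 0.31 (3.4e-05) in males by limma, and scro linear RNA changed by 0.26 and 0.35, which did not pass the test (adjusted p = 0.305 and 0.228). The ratio of circle to host rose by 1.51 and 1.57.

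The circle of stw followed another course. The gene, also called Laccase2, encodes an oxidase that tans the cuticle, and its 490-base exon 2 (chr2R:5423750-5424239) had 3675, 3524 and 3776 normalized reads in females at day 0. At day 10 it had 1354, 1272 and 1108, and at day 50 it had 1418 and 1546. In males it had 3348, 3303 and 3675 at day 0, 685 and 958 at day 10, and 1636 and 1629.9 at day 50. The groups of day 0 and day 50 did not overlap in either sex, and the circle fell by 1.30 ± 0.19 on the log2 scale in females and by 1.07 ± 0.19 in males (limma, adjusted p = 1.12e-05 and 0.00013). Linear stw RNA fell further, by 2.43 and 2.20, so the ratio of circle to host rose by 1.13 in each sex (adjusted p = 1.36e-10 and 1.84e-10). In the list of cuticle genes 17 of 24 linear RNAs fell in females and 18 in males, against 24.9% and 22.5% of all linear genes. Its only gene with a short circle was stw.

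Most circles of muscle hosts fell. The circle of bt, which encodes the giant sarcomere protein projectin, had 903, 816 and 826 normalized reads in females at day 0 and 203 and 204 at day 50, and 481, 742 and 584 against 187 and 194 in males. All day 0 values lay above all day 50 values, with a change of −2.05 ± 0.19 in females and −1.63 ± 0.19 in males (limma, adjusted p = 8.36e-14 and 1.62e-10). Linear bt RNA fell by 1.86 in females and by 1.49 in males, and the ratio of circle to host did not pass the test (−0.19 and −0.15, adjusted p = 0.626 and 0.71). Among the 5 members whose hosts were on the list of contractile genes, 4 fell in both sexes, namely those of bt, Mhc (myosin heavy chain), up (troponin T) and wupA (troponin I), with changes of −3.78, −3.41 and −2.62 for the last 3 in females. The fifth, a 432-base circle of the tropomyosin gene Tm1, rose by 2.38 in females (adjusted p = 0.00091) and changed by 1.32 in males (0.065), while Tm1 linear RNA fell by 2.06 and 1.76. Over the list, 27 of 31 linear RNAs fell in females and 26 in males, against 24.9% and 22.5% of all linear genes. Of all circRNAs tested, 2.71% fell in females and 3% in males. The short circles of bt and of Mhc, up and wupA differ in kind, since only that of bt has annotated ends.

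Circles of hosts used in neurons were called higher about as often as circRNAs in general. The list of synapse, channel and neuronal signalling genes, which also names the transcription factor scro, held 19 members from 15 hosts. Of these 9 rose and 1 fell in each sex, against 42.9% and 41.5% higher over all circRNAs tested, with median changes of 1.61 in females and 1.71 in males, against 39 and 29 of 63 linear RNAs of that list that fell. The medians over all circRNAs tested were 1.46 and 1.43. Of all linear genes, 24.9% fell in females and 22.5% in males. The circles of Sh, the Shaker potassium channel, rose from 1.60, 0 and 3.78 normalized reads to 33.8 and 47.8 (438 bases) and from 0 in all 3 libraries to 18.0 and 15.2 (441 bases) in females. In males they went from 0, 3.74 and 0 to 36.6 and 42.9 and from 0, 4.67 and 0 to 19.3 and 25.9. Values at day 50 did not overlap those at day 0 in either circle, and the shorter circle was the higher of the pair at day 50 in all 4 samples. Their ratio to linear Sh RNA rose by 5.03 and 5.36 for the shorter and by 5.01 and 4.47 for the longer (limma on log2 ratios, adjusted p between 2.13e-07 and 1.56e-06). Fitted changes of circles at 0 on day 0 depend on the pseudocount of 1 and are no bound. Nrx-1, the neurexin adhesion gene, gave a similar pair of 331 and 352 bases with a common end, with changes of 3.23 and 3.99 in females and 2.62 and 3.49 in males.

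A pair of circles of ion transporters rose while their hosts fell. The Ndae1 circle (an anion exchanger; 471 bases) had 3.03 to 4.41 normalized reads in the 3 libraries of females at day 0 and 82.3 and 81.5 at day 50. In males it peaked early, with 62.6 and 114 at day 10 and 43.4 and 47.4 at day 50, against 13.04, 0 and 7.68 at day 0. Its ratio to the host rose by 4.82 and 4.11. The circle of Atpalpha, the catalytic subunit of the sodium pump, went from 12.8, 11.03 and 7.57 to 59.7 and 55.4 in females and from 8.15, 3.74 and 3.84 to 55.0 and 41.5 in males, while Atpalpha linear RNA fell by 1.75 and 1.66. The ratio rose by 4.13 and 4.70. A 465-base circle of brp, chosen after its values were seen, rose by 3.52 and 4.45 and its ratio by 4.40 and 5.16.

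The Rbfox1 circle (477 bases; the host is a splicing regulator) had 11.2, 17.6 and 24.2 normalized reads in females at day 0 and 259 and 246 at day 50, and 19.6, 12.1 and 25.0 against 303 and 336 in males. The change was 3.82 ± 0.26 and 4.06 ± 0.26 (adjusted p = 4.87e-19 and 3.62e-20), and linear Rbfox1 RNA changed by −0.54 and −0.31. A pair of neighbouring circles of Dbp80, a DEAD-box RNA helicase, each rose in both sexes: the 353-base circle went from 198, 174 and 180.1 to 948 and 849 in females and from 185, 189 and 177 to 926 and 892 in males, and the 390-base circle from 104 to 119.5 up to 379 and 392 in females. Their changes were 2.28 and 2.30 for the first circle and 1.75 and 1.77 for the second, above a Dbp80 linear change of 0.47 and 0.62. Among photoreceptor genes 1 of 5 members was higher in each sex, and none of 3 was called among ribosomal protein genes. The list of RNA-binding genes held 14 members, of which 4 rose in females and 5 in males and none fell, against 42.9% and 41.5% higher over all circRNAs. The splicing regulator mbl, known for a circRNA from its own second exon, hosted 2 short members; the 163-base one rose by 3.74 in males (adjusted p = 0.00027) and changed by 1.58 in females (0.12).

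Other abundant members rose as well. The circle of uex, a metal transporter of the CNNM family (exon 4, 334 bases), had 141, 135 and 151 normalized reads in females at day 0 and 685 and 659 at day 50, with 153, 161 and 149 against 629.7 and 558 in males. Its changes were 2.23 and 1.94 while linear uex RNA changed by 0.01 and 0.10. The CG34370 circle (496 bases) rose by 1.99 in females and 2.04 in males, while its host fell by 1.18 and 1.10. The CG2201 circle rose from 3.20, 0 and 2.27 to 116 and 84.8 in females and from 6.52, 5.60 and 2.88 to 65.6 and 74.0 in males. The circle of Stim, the calcium sensor of the endoplasmic reticulum, went from 2.40, 0 and 3.03 to 60.9 and 55.4 in females and reached 32.8 and 34.0 in males. Day 0 and day 50 values did not overlap in any of these.

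Some circles moved with their hosts. Gnmt encodes glycine N-methyltransferase, which consumes S-adenosylmethionine, and its 445-base circle was at 0 in the 3 female libraries of day 0 and had 19.2 and 12.0 normalized reads at day 50, against 0, 1.87 and 0 and then 77.2 and 85.9 in males. Linear Gnmt RNA rose by 4.46 and 5.82, and the ratio of circle to host did not pass the test (−0.48 and 0.04). The circle of bmm, the Brummer triglyceride lipase, rose by 3.44 and 4.19 and its host by 0.67 and 0.71, so here the ratio rose (2.76 and 3.48). The 60-base circle of Uhg3, a non-coding host of small nucleolar RNAs, had 104, 110.3 and 89.3 normalized reads in females at day 0 and 194 and 187 at day 50, and 85.6, 115 and 82.6 against 175 and 188 in males. It rose by 0.91 and 0.95 with its host (0.84 and 1.07), but scaled to total circRNA reads the sign turned to −0.77 and −0.75. The sona circle (sona encodes an ADAMTS-type protease; 444 bases) fell by 2.12 and 1.91 while its linear RNA fell by 3.17 and 3.59.

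The 51-base circle of brp, the active zone scaffold Bruchpilot, lay inside an exon at chr2R:9523361-9523411 with no annotated end. It had 287, 285 and 334 normalized reads in females at day 0 and 234 and 173 at day 50, and 337, 354 and 335 against 304 and 255 in males, the smallest changes among the 10 most abundant members. The change was −0.58 ± 0.16 in females (adjusted p = 0.00205), which fell to −0.36 (0.14) without female day 50 replicate 3, and −0.30 in males (0.116). Linear brp RNA fell by 0.87 and 0.70. The Ggamma30A circle, from a gene for an eye G protein subunit, had 17.6, 22.1 and 8.32 against 19.2 and 27.2 in females and 11.4, 9.34 and 14.4 against 19.3 and 17.02 in males. It did not pass the test in either sex (0.59 ± 0.41 and 0.61 ± 0.41), and its groups overlapped in females. No member with a mean of at least 50 was without a call in both sexes.

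Over all members, 157 of 394 were higher and 20 lower in females at day 50 than at day 0, against 42.9% higher and 2.71% lower of the 4399 circRNAs tested (39.8% and 5.08% of the members). In males 119 were higher and 18 lower (30.2% and 4.57%), against 41.5% and 3%. A call required an adjusted p under 0.05 and a log2 change beyond 0.5 in limma. Without female day 50 replicate 1, the averaged sample, 95 were called higher in females. The median change of the members was 1.42 in females and 1.00 in males, against 1.46 and 1.43 over all circRNAs. Relative to total circRNA reads, a scaling that moved the change of all circRNAs by a median of −0.80 and −0.995, 51 members were higher and 33 lower in females and 30 and 34 in males. In both sexes 95 members were higher and 14 lower, and 189 were called in neither. Of the 97 members with a mean of at least 10, 74 were higher in females and 66 in males (76.3% and 68%), and 4 and 3 were lower, against 74.2% and 71.8% higher of the 1285 circRNAs with such a mean.

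Calls were also made over shorter intervals. From day 0 to day 10, 83 members were higher and 17 lower in females (21.1% and 4.31%, against 18.2% and 3.52% of all circRNAs). In males 48 were higher and 24 lower (12.2% and 6.09%, against 9.77% and 3.86%). The median change of the members was 0.72 in females and 0.40 in males, against 0.52 and 0.15 for the other single-host circles. Without male day 10 replicate 3, 27 were higher in males, and without male day 10 replicate 1, 8 were lower. In females 11 were lower without day 0 replicate 1 or without day 10 replicate 2. Both comparisons with day 0 share its libraries. Between day 10 and day 50, 68 were higher and 3 lower in females (17.3% and 0.761%, against 21.8% and 0.841% of all). In males 56 were higher and 0 lower (14.2% and 0%, against 23.2% and 0.205%). Median changes over that interval were 0.62 and 0.66, against 1.01 and 1.19 for the other single-host circles. The higher counts were 30 without female day 50 replicate 1, 35 without female day 50 replicate 3, 19 without male day 10 replicate 1, and 27 and 28 without male day 50 replicates 1 and 2, each of which left a group with 1 sample. With edgeR 1 member was lower in males over that interval and with DESeq2 2 were, and 95 members had an unadjusted p under 0.05 with limma.

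Members with and without annotated ends are given side by side. Over all circRNAs tested, 42.9% were higher and 2.71% lower in females, and 41.5% and 3% in males. The kinds also differed in level. The median of mean normalized reads was 5.56 with both ends annotated, 1.985 with none, and 1.717 with none outside CG17108. The log2(reads + 1) scale understates changes of low circles, so kind and level were not separated. Of the 230 with both ends annotated, 111 were higher and 10 lower in females (48.3% and 4.35%) and 100 and 6 in males (43.5% and 2.61%). Their median changes were 1.60 and 1.498. Of the 142 with none, 36 were higher and 10 lower in females (25.4% and 7.04%) and 10 and 11 in males (7.04% and 7.75%), with medians of 1.23 and 0.36. Without CG17108 the latter were 19 higher and 10 lower of 88 in females and 6 and 11 in males, with medians of 0.41 and 0. The share of reads on circles without annotated ends was 7.92 ± 0.633% of short circle reads in females at day 0, 11.6 ± 0.858% at day 10 and 6.26 ± 0.904% at day 50. By span, the median change was 0.28 in females and 0.21 in males for the 50 members of 50 to 99 bases, 40 of which had no annotated end, and 1.61 and 1.71 for the 71 members of 450 to 499 bases, 58 of which had both. The median levels of these bins were 2.265 and 5.102 normalized reads. Just inside the limit, 19 circles of 490 to 499 bases had median changes of 1.99 and 1.98, and just outside it 10 circles of 501 to 509 bases had 1.65 and 1.23. At the cut on the mean, the 5 members just inside lay between 1.00 and 1.02 normalized reads and the 5 circles just outside between 0.977 and 0.995.

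**Figure D3:**
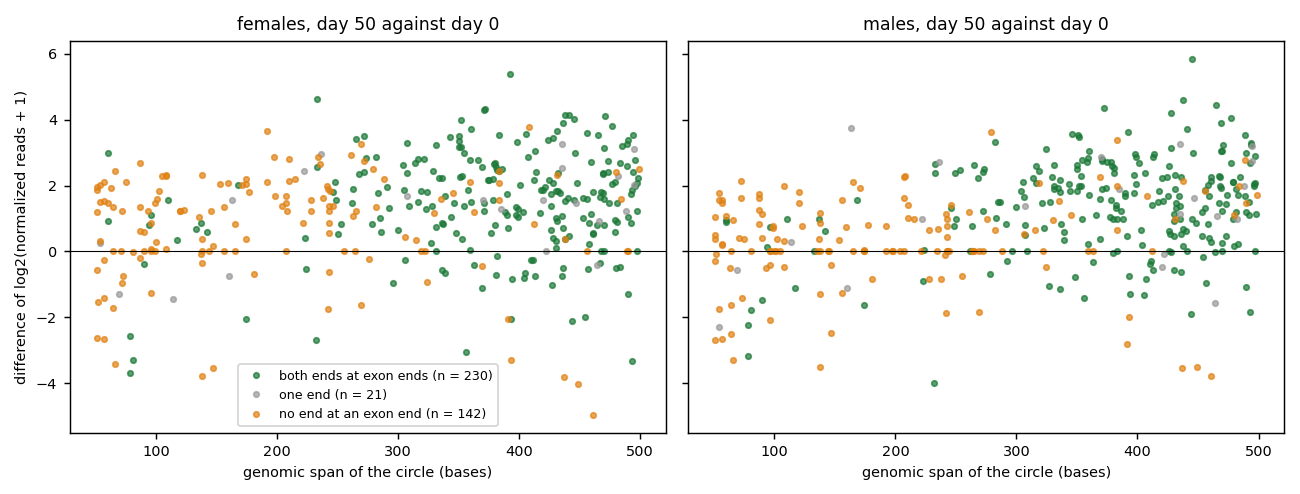
Change in log2(normalized reads + 1) from day 0 to day 50 against the genomic span of each short circle in bases, females left and males right, coloured by how many ends coincide with annotated exon ends. Each point is a circle. Circles below about 250 bases mostly have no annotated end, and the largest falls, down to −4.96 in females, are CG5172 circles of 437 to 461 bases.

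Relative to the host, 151 of 385 members with a linear host value were higher and 6 lower in females (52.3% and 1.03% of all 3998 ratios tested), and 149 and 6 in males (50.9% and 1.15%). The shares of members higher were 39.2% and 38.7%. The median ratio change was 1.21 and 1.05, against 1.90 and 1.80 for the other single-host circles. In members with both ends annotated it was 1.78 and 1.76. Where a circle was at 0 at day 50 the ratio was set by the pseudocount, as in the 4 circles of CG5172, whose ratios all counted as higher. In members with both ends annotated, 128 of 230 ratios were higher in females and 121 in males, and none was lower, although 145 and 131 had an unadjusted p under 0.05. In members without annotated ends 12 of 133 were higher and 6 lower in females and 17 and 6 in males, with medians of −0.14 and −0.47. Of the 157 members higher in females, 36 had a host that was higher, 42 a host that was lower, 74 a host that was not called and 5 a host that was not tested. All 20 members that were lower in females had a host that was lower too. In males 17 of 18 did. Circles of the same host share its linear value and are not independent in these counts. In females CG17108 gave 17 of the 157 higher members, and CG5172 and CG9297 gave 4 and 3 of the 20 lower ones.

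**Figure D4:**
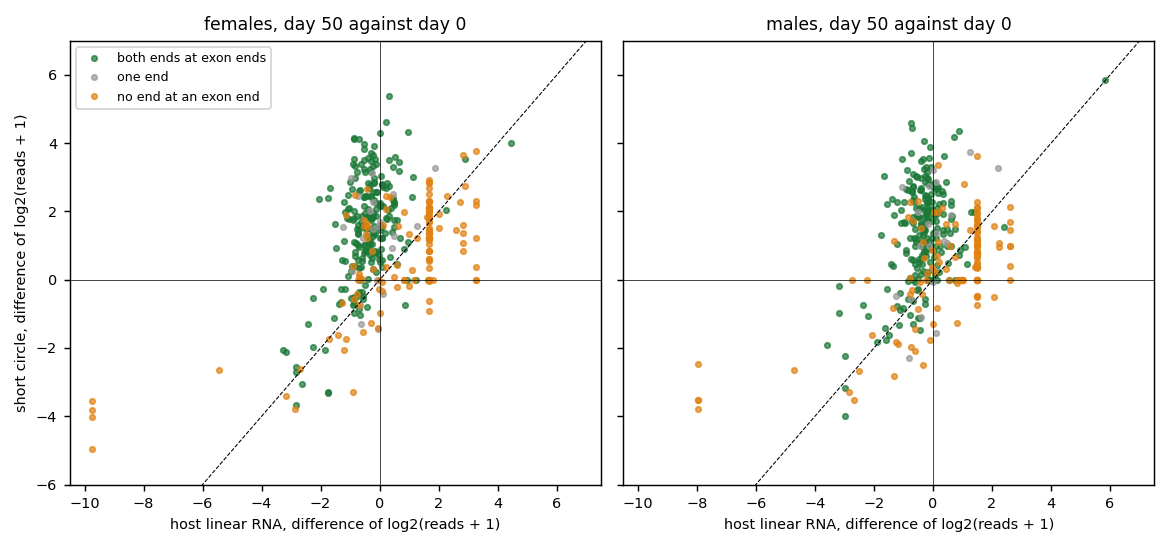
Change in log2(reads + 1) from day 0 to day 50 of each short circle against that of its linear host RNA, females left and males right; the dashed line marks equal change. Circles with annotated ends lie mostly above the line near a host change of 0, and the column of orange points at 1.67 in females is the 54 circles of CG17108.

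Among the 268 hosts with a tested linear RNA, falls outnumbered rises: 35 were higher and 116 lower in females (21% and 24.9% of all 12685 linear genes) and 30 and 99 in males (19.9% and 22.5%). The median host change was −0.37 and −0.30, against −0.04 and −0.03 over all linear genes. Among 18 linear RNAs of factors of circRNA biogenesis, export and turnover, 3 rose and 2 fell in females and 2 and 2 in males. The risers were mbl (1.28 and 1.24) and Hel25E, an RNA helicase of nuclear export (0.70 and 0.83), in both sexes, and Mettl3, the m6A writer, in females (0.52). The fallers were Adar, the RNA-editing enzyme (−1.06 and −0.90), and pcm, the 5′ to 3′ exonuclease Pacman (−0.54 and −0.61).

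**Figure D5:**
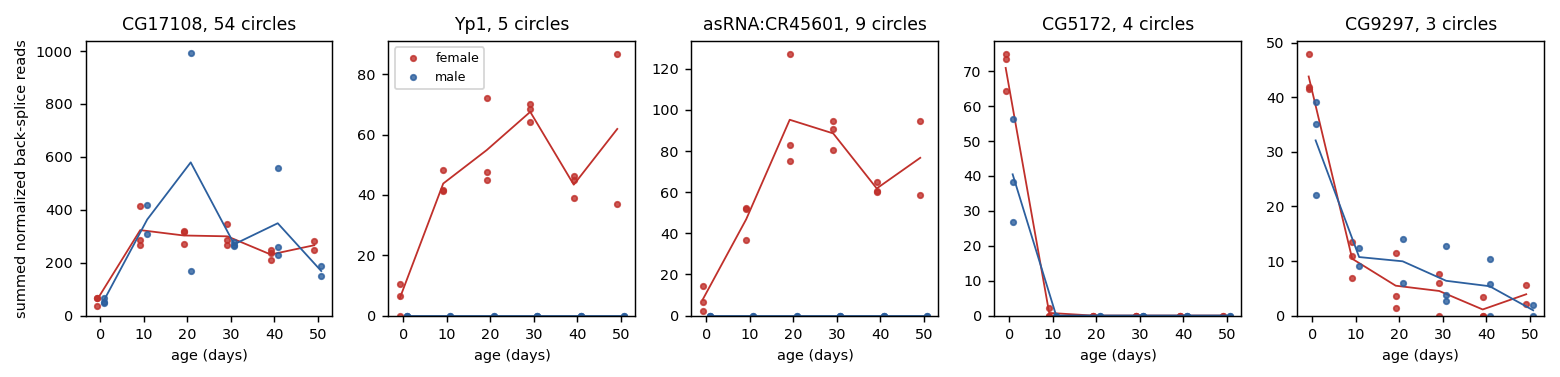
Summed normalized back-splice reads of the short circles of 5 hosts against age in days, females in red and males in blue; points are libraries and lines join group means. CG17108 circles rise after day 0 in both sexes, Yp1 and asRNA:CR45601 circles have reads only in females, and CG5172 and CG9297 circles drop after day 0.

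The circles of CG17108 followed their host. Their sum was 67.2, 37.5 and 68.1 normalized reads in females at day 0, 268, 287 and 414 at day 10, and 283 and 249 at day 50. In males it was 51.4, 66.3 and 48.99, then 309 and 417, then 187 and 149.5 at day 50, with 991 in male day 20 replicate 1 against 167 in replicate 2. Linear CG17108 RNA was 226860 in that replicate 1 and 95508 in replicate 2. Per 1000 linear reads the circles of females had 2.69 at day 0 and 4.05 at day 50, those of males 2.81 and 3.02, with group means from 2.69 to 4.05 over all ages, but 4.37 in male day 20 replicate 1 and 1.75 in replicate 2. Male day 40 replicate 1 was also high, with 559.5 reads against 228 and 259.5. Of the 54 circles 17 were called higher in females and 4 in males, and none was lower, against 42.9% and 41.5% higher over all circRNAs tested.

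Short circles of the yolk protein genes, which the female fat body secretes, were found in female heads only. All 17 members with no read in any male library were circles of Yp1, Yp2, Yp3 or asRNA:CR45601, the last of which overlaps Yp1 on the opposite strand, and no member lacked reads in all female libraries. These 17 passed the cut on the mean through female libraries alone, so their absence in males is no test of a sex difference. A count of 0 in a male library allows up to 3 reads, or 2.22 to 3.91 normalized reads. The Yp1 circles summed to 6.40, 0 and 10.6 in females at day 0 and 86.8 and 37.0 at day 50, and those of asRNA:CR45601 to 14.4, 6.62 and 2.27 and then 94.7 and 58.7. The Yp1 linear RNA was 50.5 to 6054 in male libraries and 113108 or more in females. In the list of yolk and fat body genes 16 members from 5 hosts were measured. Of these 7 were higher in females and 1 in males, and none was lower. Those of Yp1, Yp2 and Yp3 had no read in males and could not be called there. Over all circRNAs tested, 42.9% and 41.5% were higher.

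Circles of CG5172 and CG9297 were highest at day 0. The 4 CG5172 circles summed to 73.6, 75.0 and 64.3 normalized reads in females and 56.2, 38.3 and 26.9 in males at day 0, and after that only 1 of the 26 other samples had a read (2.25, female day 10 replicate 3). Linear CG5172 RNA was between 79892 and 81955 in females at day 0 and was 90.5 and 97.8 at day 50. The 3 CG9297 circles summed to 48.0, 41.9 and 41.6 in females and 35.0, 39.2 and 22.1 in males at day 0, and 5.64 and 2.17 and then 1.93 and 0 at day 50. Each of these 7 circles was lower in both sexes, against 2.71% of all circRNAs tested in females and 3% in males.

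Whether females and males changed unequally was tested by an interaction term, which no member passed in the fit of circRNAs. In the contrast of males minus females, 0 of 394 passed in limma (0% of all 4399 circRNAs in either direction), with edgeR and with DESeq2, whereas 27 had an unadjusted p under 0.05 in limma. The lowest adjusted p, 0.462, was shared by the 192-base Yp1 circle, which had no read in males, and a 436-base circle of Ptp99A, a receptor tyrosine phosphatase. The CG2201 and Stim circles had differences of −1.77 and −1.97, with an adjusted p of 0.634 each. When circRNAs and linear genes were fitted together in limma, 2 members passed, with larger rises in females. They were the 436-base Ptp99A circle (−3.39 ± 0.64, adjusted p = 0.0322) and a 383-base circle of Yp3 (−3.52 ± 0.66, 0.0322). The Yp3 circle had no read in males and so passed the cut on the mean through females alone.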

How the data were processed

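Heads of CantonS flies of 12 groups of sex and age were measured by total RNA sequencing in 33 libraries. The deposited signal values are normalized reads that the authors made as follows. STAR placed the reads on dm6 and featureCounts gave the linear counts, find_circ2 searched unaligned reads for back-splice junctions, and a single DESeq2 size factor of each library scaled both. Tool versions and the strand setting are not given in the sources used here.

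The signal in the deposited table was a whole multiple of one step in each of the 33 libraries (100% of values within 0.01 reads), so whole reads could be recovered. Male day 20 replicate 1 was still left out of the draw to equal reads and of the count tests. Linear reads were 28848182 to 94953552 per library. All 4399 circRNAs with a mean of at least 1 were fitted with limma 3.58.1 (trend and robust options) on log2(value + 1) as 12 group means over 32 samples, with Benjamini-Hochberg adjustment per comparison. Circle to host ratios and the 12685 linear genes with a mean of at least 10 were fitted likewise, the latter over all 33 libraries. Fold changes are on that log2 scale, which understates the change of low circles. Slopes over libraries used 100000 permutations. Count tests on recovered reads were made as alternatives with edgeR 4.0.16 and DESeq2 1.42.0; edgeR called 124 members higher in females and DESeq2 122, and 117 and 114 in males. A count of 0 was taken to allow 3 reads, which covers counting error only. Limma was also tested on simulated data, with changes placed only in circles with a mean of at least 10. The median member had a mean of 3.14, so that test does not cover most members. Symbols and exons came from BDGP6.54; 3 hosts had IDs missing from it, of which scro and stw were matched through exon ends. R 4.3.3 and Python 3.11.15 were used, the latter with pandas 2.3.3, scipy 1.17.1, numpy 2.4.6 and matplotlib 3.10.9.

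Replicate numbers did not pair the libraries. Named circles were the 10 highest by mean, the largest changes shared by the sexes among those with a mean of at least 10 (up to 6 each way; only 3 fell), the 4 largest ratio changes, and the 4 shortest with annotated ends. Others, including those of the host lists, were named after their values were seen. The members and lists were chosen with earlier results of these data known.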

Additional observations from a re-analysis of the deposited data

How the results depend on the processing

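Scaling each library to its total circRNA reads had the largest effect. It left 51 members higher and 33 lower in females at day 50 against day 0, and 30 and 34 in males. Against day 10 it left 6 and 6 in females and 3 and 6 in males, and 2 and 0 ratios stayed lower. The Uhg3 circle turned to −0.77 in females and −0.75 in males. Over the 20 named circles, 1666 alternative values kept direction and call, 11 lost the call, 1 gained it and 2 turned. The cause was not tested.

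Counts of lower members were small and also moved. In the order females and males at day 50 against day 0, females and males at day 10 against day 0, and females and males at day 50 against day 10, the lower counts were 10, 7, 8, 9, 1 and 2 with DESeq2 and 8, 5, 8, 12, 1 and 1 with a mean of at least 5. With members of both ends annotated only, which tests fewer circles, the first 5 of them were 10, 6, 8, 13 and 0, and 55 were higher in females at day 10. With edgeR the last 3 were 11, 1 and 1. With both female day 50 columns kept, 7 were lower in females and 1 in males between days 10 and 50, and 10 female ratios were lower. Lower ratios were 1 in females and 0 in males with a mean of at least 5, 0 and 0 with both ends annotated only, and 2 in males with a pseudocount of 0.5. Fitted together with linear genes, 2 members passed the test of the sex difference. Without male day 20 replicate 1 and male day 40 replicate 1 together, 1 member was lower in males between days 10 and 50.

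The slope of detected members was −0.434 and −0.327 per day from day 10 on (permutation p = 0.0034 and 0.38), and 2.01 and 1.9 undrawn. The difference of medians gave a male slope of 0.00174.

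Leaving out each library in turn gave the following ranges. The slope of the log2 ratio was −0.0233 to −0.0195 in females and −0.0221 to −0.0187 in males, that of the sum 107.4 to 114.2 and 117.0 to 132.2, and that of detected members −0.114 to 0.336 and −0.0557 to 0.294. At day 50 against day 0, 95 to 159 members were higher and 14 to 22 lower in females, and 82 to 125 and 13 to 18 in males. At day 10 against day 0 the ranges were 65 to 85 and 11 to 18 in females and 27 to 55 and 8 to 24 in males, and at day 50 against day 10 they were 30 to 74 and 1 to 3 in females and 19 to 59 and 0 to 1 in males. The female lower count was 1 without day 10 replicate 3 or day 50 replicate 3. Ratios were higher in 116 to 154 and lower in 4 to 9 in females, and 110 to 152 and 2 to 8 in males, where 2 remained without day 50 replicate 1 and 3 without day 0 replicate 1 or day 50 replicate 2. The count for the sex difference was 0 in each. Hosts were higher in 33 to 35 and lower in 113 to 120 in females, and 28 to 32 and 97 to 99 in males. A group left with 1 sample is assumed to vary like the others.

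Replicate numbers did not pair the libraries: deviations of same-numbered libraries correlated at −0.0523 to 0.108 over 156 pairs. With the replicate block, 153 members were higher and 20 lower in females at day 50 and 123 and 17 in males. Alternatives without scro and stw and without CG17108 were added after seeing the data.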
